A study of Saccharomyces cerevisiae BY4741 with 8 samples.

Results

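Transcript levels of 10 genes that make, deliver, modify or degrade chitin were followed in *Saccharomyces cerevisiae* after 3 h with KP1019, a ruthenium complex studied as an anticancer drug. The genes were chosen by name from 6388 genes on spotted arrays. They are the chitinase genes *CTS1* (YLR286C) and *CTS2* (YDR371W), the chitin synthase genes *CHS1* (YNL192W), *CHS2* (YBR038W) and *CHS3* (YBR023C), the genes *CHS5* (YLR330W), *CHS6* (YJL099W) and *CHS7* (YHR142W) needed to deliver Chs3 to the cell surface, and the chitin deacetylase genes *CDA1* (YLR307W) and *CDA2* (YLR308W). Each had 1 spot value per array.

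Treated cells received 80 μg/ml or 40 μg/ml KP1019, and untreated cells were the rest of the same early log phase culture (OD600 between 0.2 and 0.3, synthetic complete medium with glucose, 30 °C), left to grow without drug. All samples are labelled BY4741, a laboratory strain of mating type **a**. Each dose had 2 biological replicates, and each replicate was hybridized to 2 arrays, 1 with treated cDNA in Cy5 and 1 with treated cDNA in Cy3, giving 8 arrays. Every value given as a log2 ratio is treated over untreated on the same array, so that a negative ratio means less signal in treated cells. Cells were measured in bulk. A fall in the number of cells that express a gene and a fall in the transcript per cell therefore cannot be told apart.

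Chitin is a polymer of N-acetylglucosamine and a minor but essential part of the budding yeast wall. Chs2 builds the primary septum between mother and daughter at cytokinesis, Chs3 makes the ring at the bud neck and most chitin of the side wall, and Chs1 repairs the wall around the time of cell separation. The chitinase Cts1 is secreted and cuts the septum so that the daughter can leave, and its gene is known to be expressed after mitosis. Chs7 is a chaperone that lets Chs3 leave the endoplasmic reticulum, and Chs5 and Chs6 belong to the exomer coat that carries Chs3 from the Golgi to the plasma membrane. Cda1 and Cda2 turn chitin into chitosan and are known from the wall of the ascospore.

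The arrays of the 2 doses did not match each other in genes that tell the mating types apart. *MFA1*, which encodes a pheromone made by **a** cells, lay 2.89 to 5.16 above the median gene spot (log2, both channels) on the 80 μg/ml arrays and at -1.59 to -0.21 on the 40 μg/ml arrays. *MF(ALPHA)1*, which encodes the pheromone of α cells, lay at -3.58 to -2.30 on the 80 μg/ml arrays and at 1.01 to 2.33 on the 40 μg/ml arrays. Summed over *STE2*, *MFA1*, *MFA2* and *BAR1*, the **a** genes reached 20.3 to 74.6 times the median spot at 80 μg/ml and 0.914 to 22.5 times at 40 μg/ml. The α genes *STE3*, *MF(ALPHA)1* and *MF(ALPHA)2* together reached 0.375 to 0.659 times at 80 μg/ml and 3.51 to 7.21 times at 40 μg/ml. *STE2* lay at 1.78 to 2.95 (log2) at 80 μg/ml and at -2.31 to 4.37 at 40 μg/ml, with a median of -1.73 at 40 μg/ml. It was bright there on 1 array, that of replicate 1 with treated cDNA in Cy5 (intensity 11446 treated and 22430 untreated). On the other 40 μg/ml arrays, including the dye-reversal partner, its intensity was 88.8 to 332. The upper end of 22.5 in the sum of the **a** genes comes from that 1 array. In the mating-type genes, the 40 μg/ml arrays thus go against the labelled strain, in treated and untreated channels alike. *MET17*, a gene that BY4741 lacks, was above the blank spots in 8 of 8 channels at each dose, as was *HIS3*, which is deleted in part. Relative to the median gene spot, *MET17* lay at 0.33 to 2.44 (log2) at 80 μg/ml and at 0.0037 to 2.84 at 40 μg/ml. In this gene the arrays of both doses go against the label. *URA3*, also deleted in BY4741, was above them in 1 of 8 channels at 80 μg/ml and 0 of 8 at 40 μg/ml, and *LEU2* in 3 of 8 and 5 of 8. The pattern was the same in both channels of an array, from which each ratio within a dose is formed. Between the doses, the amount of drug and this difference between the array sets cannot be told apart, and results are also given with each dose fitted alone.

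Signal and spread differed between the sets as well. The median gene spot of the treated channel had an intensity of 688 to 3676 on the 80 μg/ml arrays and 287 to 1137 on the 40 μg/ml arrays. The log2 ratios of replicate 1 at 40 μg/ml were the widest, with a scaled median absolute deviation over genes of 0.68, against 0.32 to 0.39 in the other 3 replicates. Ratios of the arrays in a dye-reversal pair, turned the same way, correlated across genes with r between 0.406 and 0.832, where genes are not independent replicates. A spot is called above the blank spots here when it is brighter than the median of the 85 blank spots of its array and channel by over 3 scaled median absolute deviations, a rule set after the values were seen. By it, 7 of the 10 chitin genes were measured in both channels on 8 of 8 arrays. *CHS7* was so measured on 0 of 8, *CDA1* on 3 of 8 and *CDA2* on 2 of 8, and the ratios of these 3 genes carry little information.

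With both doses fitted together, *CTS1* was the only one of the 10 genes to pass the test at both: it fell 7.42-fold at 80 μg/ml and 8.24-fold at 40 μg/ml. At 80 μg/ml, 1 of 10 chitin genes passed the test in either direction, 0 higher and 1 lower, where 2.11% of all genes were higher and 1.41% lower. At 40 μg/ml, 4 of 10 passed, *CHS6* higher and *CTS1*, *CHS1* and *CHS5* lower, where 13.0% of all genes were higher and 10.3% lower. Between the doses, 0 of 10 passed, against 0.141% of all genes. The test is limma on the mean of each dye-reversal pair, with both doses sharing 1 estimate of the spread, and a gene passes when its p, adjusted by Benjamini-Hochberg over all genes, is under 0.05. Over the 10 genes, the median log2 ratio was 0.08 at 80 μg/ml and -0.02 at 40 μg/ml, beside 0.00 and -0.01 over all genes.

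**Figure D1:**
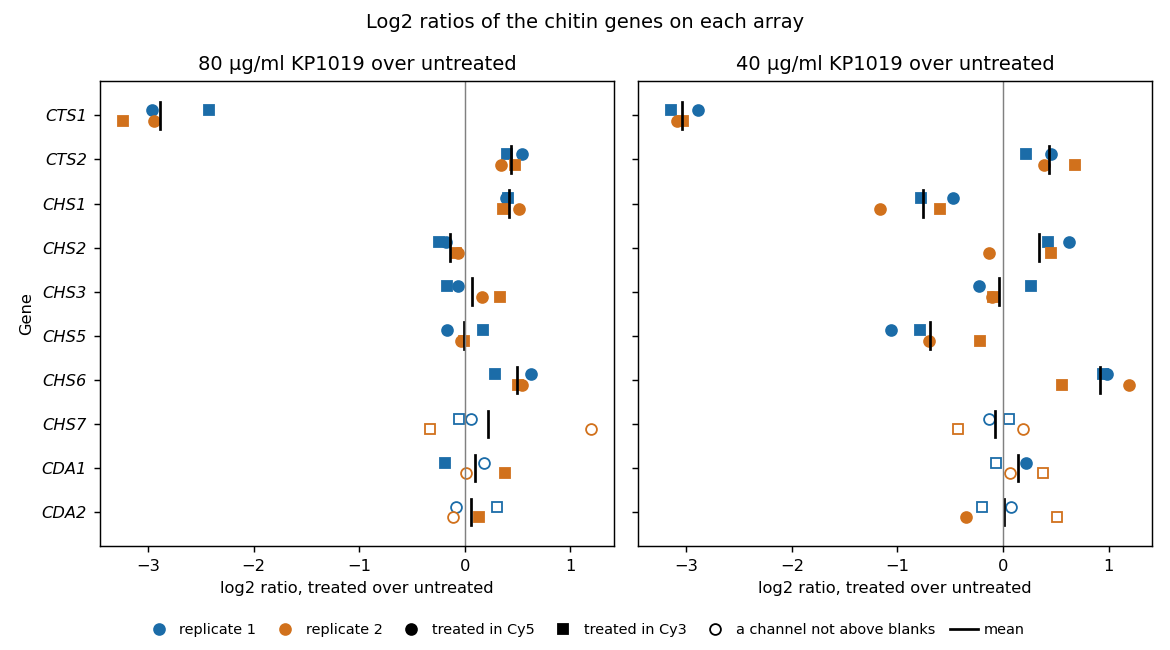
Log2 ratio (treated over untreated, x axis) of the 10 chitin genes (y axis) on each array at 80 μg/ml (left) and 40 μg/ml (right). Colour marks the replicate, shape the dye of the treated cDNA, open symbols a spot with a channel not above the blank spots, and the black line the mean of the 2 replicates. *CTS1* stands alone at -3.24 to -2.42 at 80 μg/ml and -3.15 to -2.89 at 40 μg/ml, and *CHS1* lies right of 0 at 80 μg/ml and left of 0 at 40 μg/ml.

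The count at 80 μg/ml depended on the 40 μg/ml arrays, whose spread entered the common estimate. With each dose fitted alone, 4 of 10 genes passed at 80 μg/ml, with *CTS2* (adjusted p = 0.0247), *CHS1* (0.0322) and *CHS6* (0.0142) higher and *CTS1* lower, where limma then called 22.2% of all genes in either direction. Leaving out replicate 1 or replicate 2 of 40 μg/ml gives this same fit at 80 μg/ml, since a lone replicate adds no spread. At 40 μg/ml, the fit of that dose alone kept 4 genes, *CTS1*, *CHS1* (limma adjusted p = 0.0283), *CHS5* (0.0475) and *CHS6* (0.00559), beside 20.6% of all genes in either direction. With each dose fitted alone, *CHS1* and *CHS6* thus passed at both doses as well, *CHS1* in opposite directions. P-values from a dose fitted alone rest mostly on a spread pooled over all genes, not on the gene's own replicates.

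Among the chitinase genes, *CTS1* carried a bright signal in untreated cells that was dim in treated cells. In the 4 hybridizations at 80 μg/ml, its mean spot intensity was 1699.7, 3016, 2443 and 3691 in the treated channels and 7984, 26192, 31412 and 36211 in the untreated channels of the same arrays. In those at 40 μg/ml it was 1151, 467, 1704 and 918 in the treated channels and 22157, 7621, 16795 and 19751 in the untreated channels. Every spot was above the blank spots. Untreated channels were brighter over the 40 μg/ml arrays as a whole.

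After normalization, the log2 ratios of *CTS1* were -2.42, -2.96, -2.94 and -3.24 at 80 μg/ml and -2.89, -3.15, -3.04 and -3.09 at 40 μg/ml. They averaged -2.89 ± 0.28 at 80 μg/ml (SD, n = 2, 95% interval -3.30 to -2.49, limma adjusted p = 0.000291) and -3.04 ± 0.03 at 40 μg/ml (SD, n = 2, -3.45 to -2.64, adjusted p = 0.00033). All 8 arrays were below 0. Ranked by mean ratio, *CTS1* was 7th from the lowest of 6388 genes at 80 μg/ml and 2nd from the lowest at 40 μg/ml. The doses differed by 0.15 (80 minus 40, log2, 95% interval -0.42 to 0.72, limma adjusted p = 0.752), an interval that still allows a difference of 0.72.

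*CTS1* was also the only chitin gene that met the study's own criteria, at each dose. These ask in both replicates for at least a 3.5-fold change, a % difference between dye-reversal partners of at most 50, and a range of the partners over the smaller value of at most 3.5. They were applied here to the ratios computed from the intensities. Its mean fold decrease was 6.58 and 8.56 in the replicates at 80 μg/ml and 8.14 and 8.37 at 40 μg/ml. The % difference was 37.3 and 20.3 at 80 μg/ml and 17.9 and 3.96 at 40 μg/ml. Over all genes, 10 met the criteria as lower and 5 as higher at 80 μg/ml, and 10 as lower and 14 as higher at 40 μg/ml. With a 2-fold limit *CTS1* was still the only one of the 10.

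**Figure D2:**
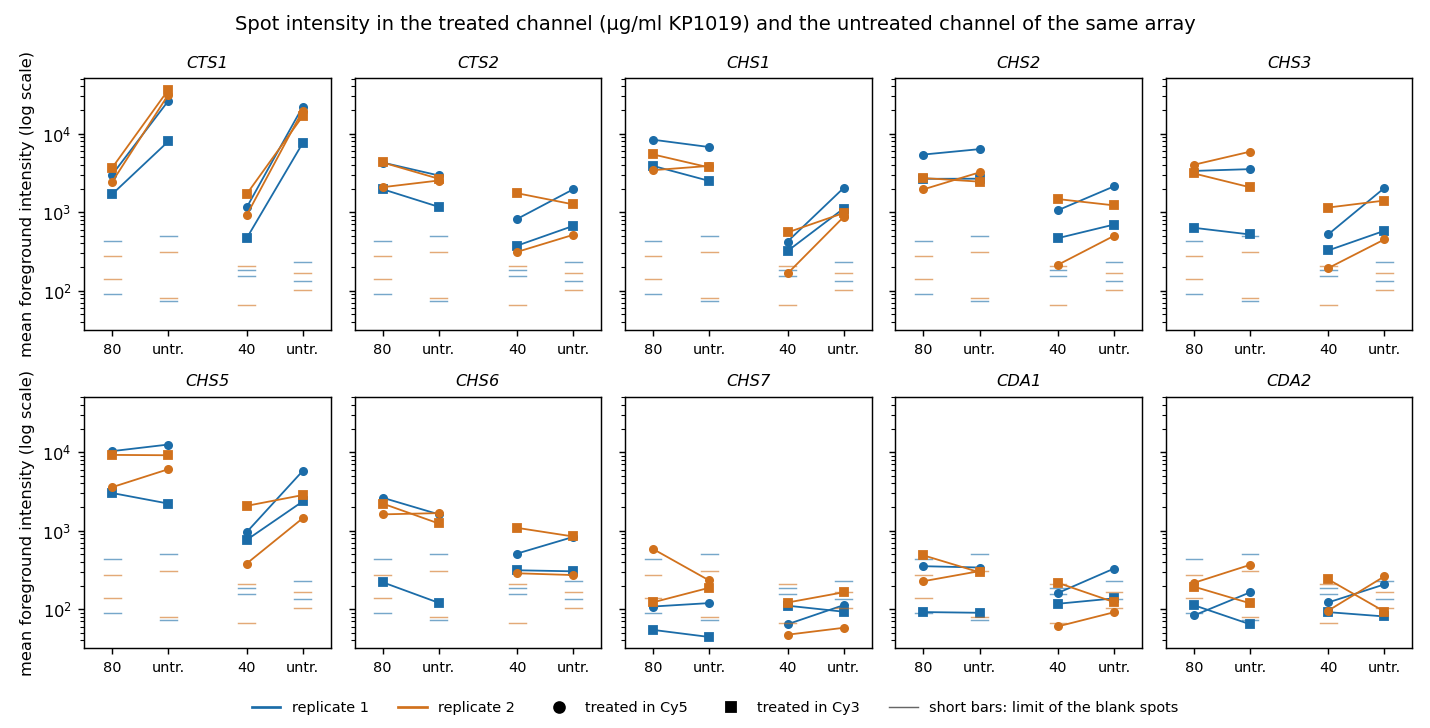
Mean spot intensity (y axis, log scale, arbitrary units) of each chitin gene, with lines joining the treated channel (80 or 40 μg/ml) to the untreated channel of the same array before normalization. Colour marks the replicate, shape the dye of the treated cDNA, and short bars the limit set by the blank spots. The *CTS1* lines climb from treated to untreated on 8 of 8 arrays, while *CHS7*, *CDA1* and *CDA2* lie around the limit.

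*CTS2*, a putative chitinase gene, did not follow *CTS1*. Its intensity was 1963 to 4298 in treated and 1170.0 to 2939 in untreated channels at 80 μg/ml, and 312 to 1746 in treated and 515 to 1956 in untreated channels at 40 μg/ml. Before normalization the treated spot was the brighter one on 3 of 4 arrays at 80 μg/ml and on 1 of 4 at 40 μg/ml, where the untreated channels were brighter over the array as a whole. Normalized log2 ratios were 0.40, 0.54, 0.35 and 0.48 at 80 μg/ml and 0.45, 0.21, 0.68 and 0.39 at 40 μg/ml. All 8 arrays were above 0. The means of 0.44 ± 0.04 at 80 μg/ml (limma adjusted p = 0.202) and 0.43 ± 0.14 at 40 μg/ml (adjusted p = 0.0905, SD, n = 2 each) did not pass the test with both doses together.

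The 3 chitin synthase genes gave 3 different pictures. *CHS1*, the repair synthase gene, had treated intensities of 3432 to 8387 and untreated intensities of 2505 to 6765 at 80 μg/ml. At 40 μg/ml it had 166 to 553 in treated and 868 to 2033 in untreated channels. These are values before normalization, and untreated channels were brighter over the 40 μg/ml arrays as a whole.

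Its log2 ratios were 0.41, 0.39, 0.51 and 0.36 at 80 μg/ml, and -0.47, -0.78, -0.60 and -1.17 at 40 μg/ml. *CHS1* thus lay above 0 on 4 of 4 arrays at the higher dose and below 0 on 4 of 4 at the lower dose. It fell at 40 μg/ml, with a mean of -0.75 ± 0.18 (SD, n = 2, 95% interval -1.14 to -0.37, limma adjusted p = 0.019). At 80 μg/ml it averaged 0.42 ± 0.03 (SD, n = 2, 0.03 to 0.80, adjusted p = 0.231). The fall at 40 μg/ml no longer passed with plain background subtraction (-0.92, limma adjusted p = 0.0559) or with only the arrays that had treated cDNA in Cy3 (-0.69, adjusted p = 0.0596).

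The ratio of *CHS1* at 80 μg/ml exceeded that at 40 μg/ml by 1.17 (log2, 95% interval 0.63 to 1.71). This difference did not pass over all genes (limma adjusted p = 0.106). It passed without replicate 1 of 40 μg/ml (1.30, adjusted p = 0.00677) and without replicate 2 of 40 μg/ml (1.04, adjusted p = 0.00268), in fits that called 256 and 2339 of all genes. It did not pass without replicate 1 of 80 μg/ml (1.19, limma adjusted p = 0.271) or without replicate 2 of 80 μg/ml (1.15, adjusted p = 0.265). The mating-type genes named above differ between the same arrays, and dose and array set cannot be told apart in this comparison.

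*CHS2*, whose product builds the primary septum, gave log2 ratios of -0.25, -0.18, -0.07 and -0.08 at 80 μg/ml and 0.62, 0.42, 0.45 and -0.14 at 40 μg/ml. It lay below 0 on 4 of 4 arrays at 80 μg/ml and above 0 on 3 of 4 at 40 μg/ml. Its means were -0.14 ± 0.10 at 80 μg/ml (limma adjusted p = 0.745) and 0.34 ± 0.26 at 40 μg/ml (adjusted p = 0.189, SD, n = 2 each). The dose difference was -0.48 (95% interval -1.05 to 0.08). Without replicate 2 of 40 μg/ml, *CHS2* passed as higher at 40 μg/ml (0.52, limma adjusted p = 0.0302) and as lower at 80 than at 40 μg/ml (-0.67, adjusted p = 0.0325), in a fit that called 3059 of all genes at 40 μg/ml. Without replicate 1 of 40 μg/ml neither passed (0.16, limma adjusted p = 0.612, and -0.30, adjusted p = 0.486).

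*CHS3*, which encodes the synthase of most wall chitin, showed log2 ratios of -0.16, -0.06, 0.16 and 0.33 at 80 μg/ml and -0.23, 0.27, -0.09 and -0.10 at 40 μg/ml. Arrays fell on both sides of 0 at each dose. The means were 0.07 ± 0.25 at 80 μg/ml (95% interval -0.33 to 0.47) and -0.04 ± 0.08 at 40 μg/ml (-0.44 to 0.36, SD, n = 2 each). These intervals leave out a change of the size seen for *CTS1*.

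**Figure D3:**
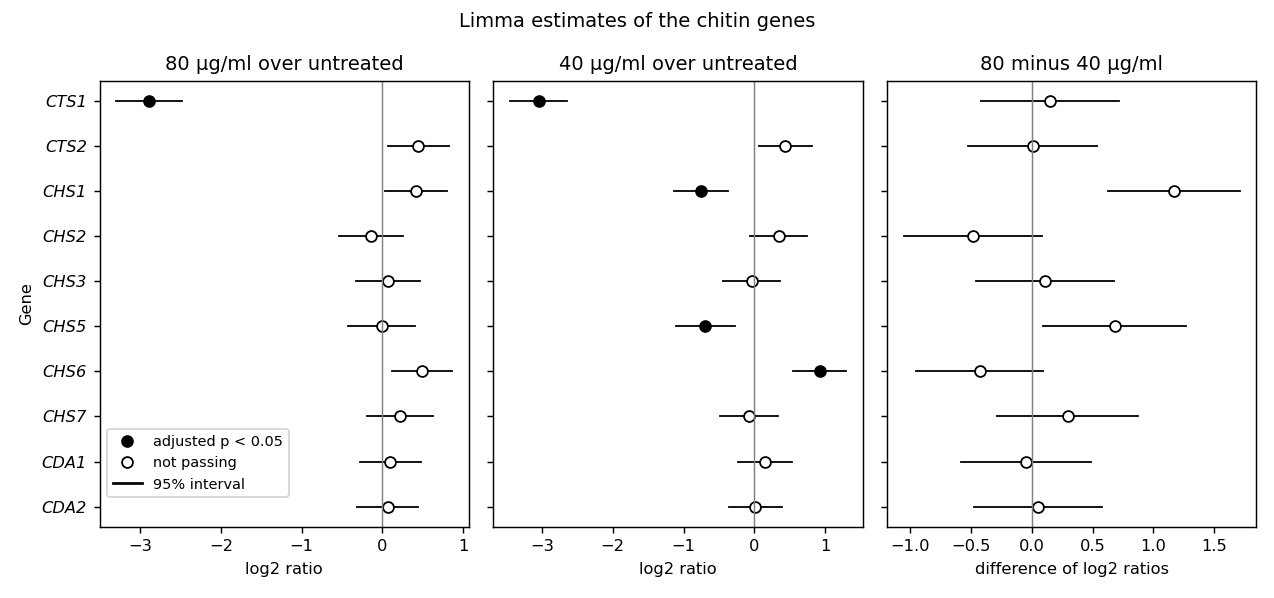
Limma estimates (points) with 95% intervals (lines) for the 10 chitin genes (y axis): log2 ratio at 80 μg/ml (left) and 40 μg/ml (middle), and the difference 80 minus 40 μg/ml (right). Filled points have an adjusted p under 0.05: *CTS1* at both doses, and *CHS1*, *CHS5* and *CHS6* at 40 μg/ml. No point is filled in the right panel, where *CHS1* at 1.17 lies farthest from 0.

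The 2 exomer genes among the chitin genes chosen by name moved in opposite directions at 40 μg/ml. Other exomer genes, *BCH1*, *BCH2* and *BUD7*, were read with the partners of the synthases. Their log2 ratios at 40 μg/ml were -0.38, 0.37 and -0.37, and none passed (limma adjusted p = 0.141, 0.216 and 0.216). *CHS5*, which encodes a core subunit of the coat, had treated intensities of 3019 to 10326 and untreated intensities of 2216 to 12528 at 80 μg/ml, and 382 to 2073 in treated and 1443 to 5784 in untreated channels at 40 μg/ml. Its log2 ratios were 0.18, -0.17, -0.04 and -0.01 at 80 μg/ml and -1.06, -0.78, -0.22 and -0.70 at 40 μg/ml. *CHS5* lay around 0 at the higher dose and below 0 on 4 of 4 arrays at the lower dose.

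*CHS5* averaged -0.01 ± 0.02 at 80 μg/ml (limma adjusted p = 0.987) and -0.69 ± 0.33 at 40 μg/ml (95% interval -1.11 to -0.28, adjusted p = 0.0315, SD, n = 2 each). The fall at 40 μg/ml rested on replicate 1: without it the ratio was -0.46 (limma adjusted p = 0.0995). It also did not pass with background subtraction (-0.74, limma adjusted p = 0.0812) or on the arrays with treated cDNA in Cy3 alone (-0.50, adjusted p = 0.173). The doses differed by 0.68 (95% interval 0.10 to 1.27, limma adjusted p = 0.194). Without replicate 2 of 40 μg/ml this difference was 0.91 and passed (limma adjusted p = 0.00603), and without replicate 1 of 40 μg/ml it was 0.45 and did not (adjusted p = 0.276).

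*CHS6*, which encodes a cargo adaptor of the exomer, gave ratios (log2) of 0.28, 0.63, 0.55 and 0.50 at 80 μg/ml and 0.98, 0.95, 0.56 and 1.19 at 40 μg/ml. All 8 arrays were above 0, and it was the only chitin gene that rose past the threshold with both doses fitted together. It rose 1.89-fold at 40 μg/ml (log2 0.92 ± 0.06, SD, n = 2, 95% interval 0.55 to 1.29, limma adjusted p = 0.0105). At 80 μg/ml it averaged 0.49 ± 0.05 (SD, n = 2, 0.12 to 0.86, adjusted p = 0.147). With only the arrays that had treated cDNA in Cy3, the rise at 40 μg/ml did not pass (0.75, limma adjusted p = 0.0505). The dose difference was -0.43 (95% interval -0.95 to 0.09).

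*CHS7*, the chaperone gene for Chs3, was too dim to compare. Its intensities were 54.4 to 584 in treated and 44.2 to 233 in untreated channels at 80 μg/ml, and 47.3 to 122 in treated and 57.9 to 164 in untreated channels at 40 μg/ml. Just 1 of 8 treated and 1 of 8 untreated spots were above the blank spots, on different arrays. The log2 ratios spread from -0.33 to 1.19 at 80 μg/ml and from -0.43 to 0.19 at 40 μg/ml, with limma adjusted p = 0.587 and 0.785.

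*CDA1* and *CDA2*, which lie next to each other in the genome, were also close to the blank spots. *CDA1* had 91.9 to 485 in treated and 89.9 to 340 in untreated channels at 80 μg/ml, and 60.3 to 216 in treated and 91.4 to 329 in untreated channels at 40 μg/ml. *CDA2* had 83.1 to 216 in treated and 64.3 to 367 in untreated channels at 80 μg/ml, and 91.6 to 239 in treated and 80.8 to 262 in untreated channels at 40 μg/ml. Treated and untreated values overlapped for both genes at both doses.

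At 80 and 40 μg/ml, the mean log2 ratio of *CDA1* was 0.10 and 0.15, and that of *CDA2* was 0.06 and 0.01 (limma adjusted p between 0.55 and 0.973). In the table of ratios that the authors deposited, both genes passed at 40 μg/ml (*CDA1* 0.68, limma adjusted p = 0.0478; *CDA2* 0.77, adjusted p = 0.03). Their calls thus differ between the deposited ratios and the ratios computed from the intensities.

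The genes whose 4 replicate ratios lay nearest to those of *CTS1* were *EGT2*, *DSE4* and *SCW11*. Likeness was measured as the root mean square difference of the log2 ratios over the 4 replicates, among 5280 other genes above the blank spots in at least 1 channel on 8 of 8 arrays. It was 0.58 for *EGT2*, which encodes a wall protein needed for cell separation, 0.60 for *DSE4*, which encodes a glucanase of daughter cells, and 0.65 for *SCW11*, which encodes a wall protein similar to glucanases. At 80 and 40 μg/ml, the log2 ratio was -3.64 and -2.80 for *EGT2*, -2.99 and -2.21 for *DSE4*, and -2.56 and -2.24 for *SCW11*. These genes were picked for their likeness, and no test is given for them.

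**Figure D4:**
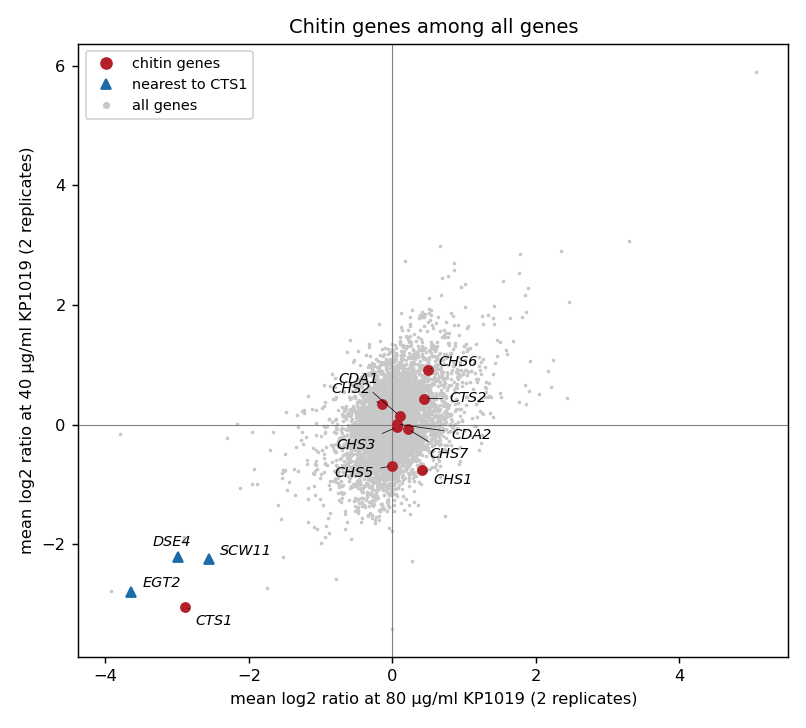
Mean log2 ratio (treated over untreated, n = 2 replicates) at 80 μg/ml (x axis) and 40 μg/ml (y axis) for all 6388 genes (grey), the 10 chitin genes (red circles) and the 3 genes nearest to *CTS1* (blue triangles). *CTS1*, *EGT2*, *DSE4* and *SCW11* lie apart at the lower left, and the other 9 chitin genes lie within the grey cloud.

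A further 30 genes were read in 5 lists, which cover chitin metabolism but also Swi5 with the Cbk1 kinase network, and the spore wall. Of the 30, 2 rose and 1 fell at 80 μg/ml, and 1 rose and 2 fell at 40 μg/ml. Those that rose were spore wall genes. Over all genes, 2.11% rose and 1.41% fell at 80 μg/ml, and 13.0% rose and 10.3% fell at 40 μg/ml. The lists' median log2 ratio was 0.11 at 80 μg/ml and -0.02 at 40 μg/ml. None of 4 genes for the synthesis of UDP-N-acetylglucosamine, the substrate of the synthases, passed at either dose. *GFA1*, the gene of the first enzyme, had -0.09 ± 0.32 at 80 μg/ml and -0.63 ± 0.46 at 40 μg/ml (SD, n = 2 each, limma adjusted p = 0.886 and 0.0685). Of 10 genes for partners of the synthases, 0 passed at either dose, with ratios of -0.49 to 0.82 at 80 μg/ml and -0.66 to 0.37 at 40 μg/ml. *SKT5*, which encodes the activator of Chs3, had -0.00 at 80 μg/ml and 0.13 at 40 μg/ml.

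Of 7 genes for the transcription factor Swi5 and the Cbk1 kinase network, *MOB2* fell at both doses. *MOB2* encodes the partner of the kinase Cbk1, and its ratio was -1.06 ± 0.15 at 80 μg/ml (limma adjusted p = 0.0198) and -0.68 ± 0.27 at 40 μg/ml (adjusted p = 0.0318, SD, n = 2 each). The fall at 80 μg/ml did not pass without its replicate 1 (-0.96, limma adjusted p = 0.302) or its replicate 2 (-1.17, adjusted p = 0.104). The fall at 40 μg/ml did not pass without its replicate 1 (-0.49, limma adjusted p = 0.0887) or without either replicate of 80 μg/ml (-0.68, adjusted p = 0.053). With background subtraction it passed at neither dose (limma adjusted p = 0.125 at 80 μg/ml and 0.0879 at 40 μg/ml). Of 16 alternatives, it passed in 12 at 80 μg/ml and in 8 at 40 μg/ml, but these are not separate tests. A dose fitted alone and the fits without a replicate of the other dose are the same fit at that dose. The 16 also include a replicate block chosen after seeing the data.

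*SWI5*, the gene of a transcription factor that acts at the end of mitosis, had -0.23 at 80 μg/ml and -0.29 at 40 μg/ml. Neither passed the threshold. At 40 μg/ml the treated *SWI5* signal was dim (intensity 57.2 to 311). Just 1 treated spot there exceeded the limit set by the blank spots, and the ratio at that dose carries little information.

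Of 3 genes for enzymes that join chitin to glucan, *UTR2* fell at 40 μg/ml (-1.47 ± 0.47, limma adjusted p = 0.00611) and had -0.87 ± 0.04 at 80 μg/ml (adjusted p = 0.0591, SD, n = 2 each). It was below 0 on 8 of 8 arrays. With 80 μg/ml fitted alone, *UTR2* passed there as well (limma adjusted p = 0.000266), in a fit that called 22.2% of all genes. Of 16 alternatives, *UTR2* passed at 80 μg/ml in 6, which count that same fit more than once. *CRH1*, its close relative, had -0.14 at 80 μg/ml and -0.22 at 40 μg/ml, neither past the threshold.

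Of 6 spore wall genes, *DIT1* rose at both doses and *OSW2* at 80 μg/ml. *DIT1*, whose product makes a precursor of the dityrosine layer of spores, had ratios of 1.63 ± 0.15 at 80 μg/ml (limma adjusted p = 0.00477) and 1.77 ± 0.37 at 40 μg/ml (adjusted p = 0.0026, SD, n = 2 each). It was above the blank spots in both channels on 8 of 8 arrays. *OSW2*, needed for the outer spore wall, had 1.51 ± 0.15 at 80 μg/ml (limma adjusted p = 0.00682) and 0.46 at 40 μg/ml (adjusted p = 0.115). *DIT2*, the neighbour and partner of *DIT1* in the same pathway, had 0.47 ± 0.58 at 80 μg/ml and 0.12 ± 0.51 at 40 μg/ml (SD, n = 2 each, limma adjusted p = 0.375 and 0.76). However, *DIT2* was above the blank spots in both channels on just 3 of 8 arrays, and its ratios carry little information. Without replicate 2 of 40 μg/ml *OSW2* passed there too (0.74, limma adjusted p = 0.00497), and without replicate 1 it had 0.19 (adjusted p = 0.537). With background subtraction *DIT1* (adjusted p = 0.0829) and *OSW2* (0.0566) did not pass at 80 μg/ml.

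**Figure D5:**
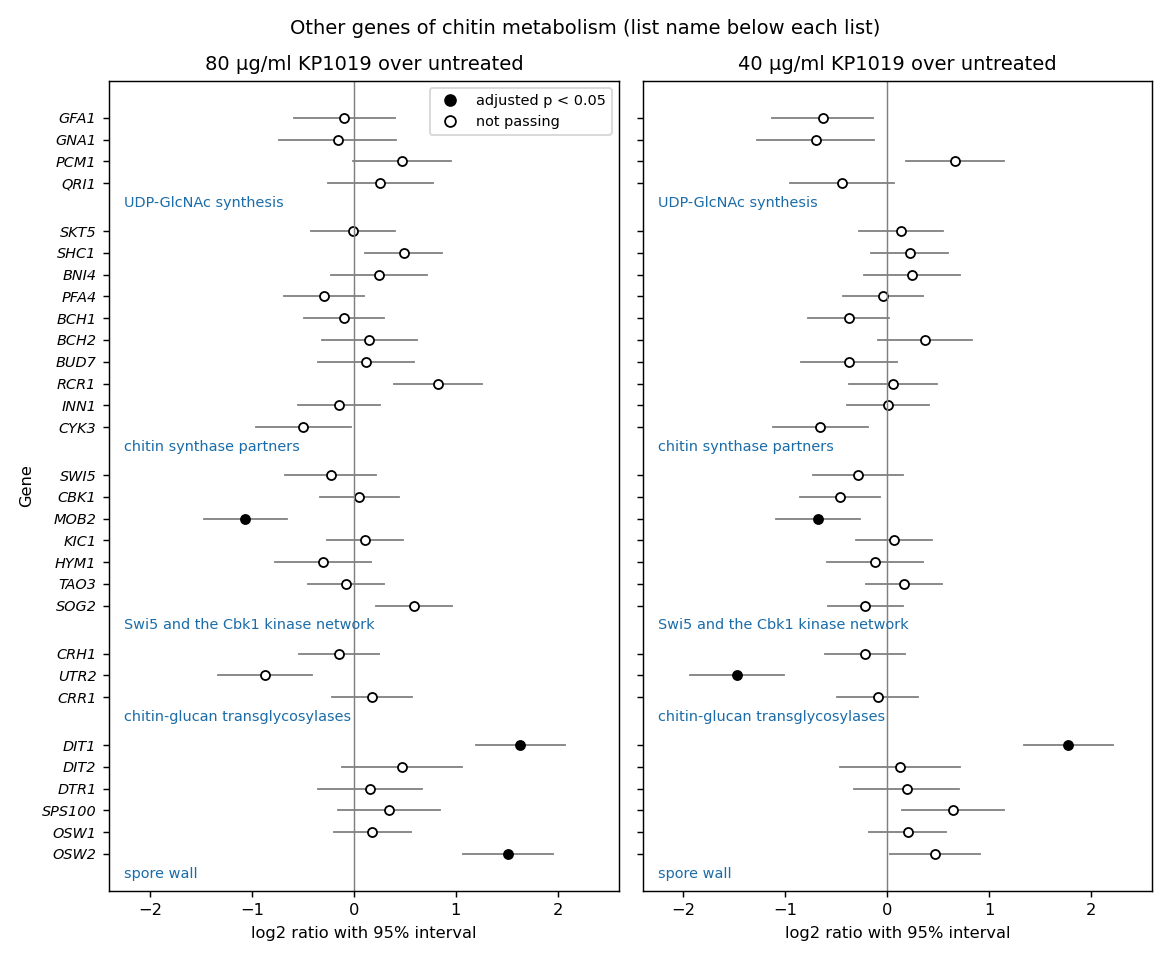
Log2 ratio with 95% interval (x axis) of 30 other genes (y axis), by list, at 80 μg/ml (left) and 40 μg/ml (right). The lists cover chitin metabolism, Swi5 with the Cbk1 kinase network, and the spore wall. Filled points have an adjusted p under 0.05. *MOB2* and *DIT1* are filled in both panels, *OSW2* at 80 μg/ml and *UTR2* at 40 μg/ml.

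The nearest measured neighbours of the chitin genes on their chromosomes were 18 other genes. At 80 μg/ml 0 of them rose and 0 fell, and at 40 μg/ml 3 rose and 2 fell, where 13.0% of all genes rose and 10.3% fell. *DSE2*, named here after its value was seen, lies beside the dim *CHS7* and encodes a daughter-cell wall protein with a part in separation. Its log2 ratio was -3.41 at 40 μg/ml (limma adjusted p = 0.000126), where it was above the blank spots in both channels on 4 of 4 arrays. At 80 μg/ml its ratio was -0.01, and 1 of 4 treated and 1 of 4 untreated spots were above the blank spots.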

How the data were processed

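The authors grew, treated and hybridized the cells, quantified the scans in MagicTool and deposited unnormalized mean and total intensity per feature and channel. They also deposited a table of ratios (signed fold of red over green), normalized by a method not given in the sources used here. No depth exists for arrays, and their number limits the precision. Mean intensity was corrected with normexp (offset 50), normalized by loess within arrays (blank and control spots at weight 0), averaged per gene, turned for dye and averaged per dye-reversal pair, in R 4.3.3 with limma 3.58.1. Both doses shared 1 spread (degrees of freedom: 2 residual, 5.66 prior). P-values are two-sided and cover the spread between these replicates, drawn toward a spread pooled over all genes. A dose fitted alone, or a fit with a replicate block, leaves 1 residual degree of freedom. P-values of those fits rest mostly on the pooled spread, not on the gene's own replicates. All chitin genes, list genes past the threshold and the 3 genes nearest to a chitin gene that passed at both doses are named. A further gene considered for the lists is not reported here. Members and lists were chosen with earlier results of these data known. Names of 5849 of 6388 genes matched RefSeq locus tags, which also gave the neighbours. The fit was tested on simulated replicate values with the same spread and the same changes at both doses. That simulation does not test the shared spread or the normalization. Alternatives covered background, normalization, signal, filter, dye, spread, replicate block and each replicate left out.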

Additional observations from a re-analysis of the deposited data

Results flagged for a closer look

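*CHS1* was singled out because its effect differed between the doses: its log2 ratio lay above 0 on 4 of 4 arrays at 80 μg/ml and below 0 on 4 of 4 arrays at 40 μg/ml. The difference, 80 minus 40 μg/ml, was 1.17 (95% interval 0.63 to 1.71), with a limma adjusted p of 0.106. Over 15 alternatives the difference ranged between 1.04 and 1.34. With 2 replicates per dose, it passed with arrays scaled to 1 spread (limma adjusted p = 0.0153) and with the replicate number as a block (0.0148). It also passed with those numbers crossed between the doses (0.00202), a setting chosen after seeing the data. These fits called 597, 440 and 830 of all genes between the doses, against 9 without such changes. With background subtraction the limma adjusted p was 0.326. Mating-type genes differed between the same sets of arrays, and the dose and the set cannot be told apart. In 20 groups of 4 arrays, 1 for each gene and dose, no array stood apart by Dixon's test.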

How the results depend on the processing

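*CTS1* kept its fall in all 16 alternatives at 80 μg/ml (-3.68 to -2.69) and at 40 μg/ml (-3.17 to -2.54), with a limma adjusted p of at most 0.0122. The number of chitin genes past the threshold at 80 μg/ml, 1 with both doses together, was 4 with arrays scaled to 1 spread or each dose fitted alone, and 1 to 4 with a replicate left out. Over all genes the count moved with it, at 225 with both doses together, 1500 scaled, 1415 alone, and 82 to 1415 with a replicate left out. At 40 μg/ml, 4 became 2 with background subtraction and 1 with only treated Cy3 arrays, 6 with the deposited ratios, and 3 to 5 with a replicate left out, beside 1489, 389, 885, 1692 and 1080 to 3059 over all genes in the same order. Between the doses, 0 became 1 (*CHS1*) with arrays scaled to 1 spread, 1 with the replicate block, and 0 to 3 with a replicate left out, while the count over all genes, 9 with both doses together, became 597, 440 and 29 to 2339.

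The replicate number as a block gave an adjusted p of 0.0148 for the *CHS1* difference. It moved the count over all genes to 469 at 80 μg/ml and 1777 at 40 μg/ml, against 225 and 1489 without it. The labels do not say that a number pairs cultures of the 2 doses, and deviations of like-numbered replicates correlated at -0.136 across genes. With crossed numbers, chosen after seeing the data, 702 genes passed at 80 μg/ml, 2127 at 40 μg/ml, and 1 chitin gene between the doses.

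Directions turned, in each case without passing the threshold, as follows. For *CDA2*, the difference turned without background correction (-0.095), with subtraction (-0.94), with median centring (-0.50) and with the deposited ratios (-0.72), the ratio at 80 μg/ml with subtraction (-0.076), median centring (-0.017) and treated Cy5 arrays (-0.095), and that at 40 μg/ml with total intensity (-0.060) and treated Cy5 arrays (-0.13). For *CHS7*, the ratio at 40 μg/ml turned with median centring (0.53), total intensity (0.079), deposited ratios (0.62) and treated Cy5 arrays (0.031), that at 80 μg/ml with treated Cy3 arrays (-0.19), and the difference with median centring (-0.48), deposited ratios (-0.29) and treated Cy3 arrays (-0.0047). The difference of *CTS2* turned with subtraction (-0.016), total intensity (-0.024) and treated Cy3 arrays (-0.011). *CHS5* turned at 80 μg/ml with total intensity (0.012) and treated Cy3 arrays (0.083). *CHS3* turned with treated Cy3 arrays at 40 μg/ml (0.087) and in the difference (-0.0023). The differences of *CTS1* (-1.14) and *CDA1* (0.0099) turned with arrays scaled to 1 spread.

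With a replicate left out, the differences ranged from -0.049 to 0.35 for *CTS1*, -0.096 to 0.11 for *CTS2*, -0.071 to 0.29 for *CHS3*, -0.15 to 0.051 for *CDA1* and -0.018 to 0.12 for *CDA2*. The ratios at 80 μg/ml then ranged from -0.11 to 0.25 for *CHS3*, -0.024 to 0.0049 for *CHS5* and -0.00054 to 0.20 for *CDA1*, and those at 40 μg/ml from -0.099 to 0.018 for *CHS3* and -0.061 to 0.080 for *CDA2*. In these fits the lone replicate of a dose is assumed to vary like the replicates of the other dose. The cause of the turns was not tested. Dim spots limit *CHS7*, *CDA1* and *CDA2*.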
